A study of Homo sapiens with 4 samples.

Results

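The metallothionein genes MT1A, MT1E, MT1F, MT1G, MT1H, MT1M, MT1X and MT2A were followed in HepG2 cells together with MTF1 and SLC30A1, 10 genes chosen by symbol out of the 24462 that the count tables hold. All 10 were listed once in every table and had at least 10 reads in one of the libraries of each comparison. Metallothioneins are very small proteins in which cysteines bind zinc and copper and can also take up cadmium. Their genes are switched on by MTF1, a zinc finger factor that senses free zinc and binds short metal response elements in promoters, and hepatocytes are among the cells that use them most, as a store and buffer of zinc. SLC30A1 encodes ZnT1, a zinc exporter of the plasma membrane and a known target of MTF1. The genes were read from the side of CDK4/6 inhibition, the question of the series, which set a CDK4/6 inhibitor and a knockdown of both kinases beside their controls.

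HepG2 is a human liver cancer cell line that grows with hepatocyte-like features. A library was made from cells given PD0332991, an inhibitor of the kinases CDK4 and CDK6, one from cells given its solvent DMSO, one from cells transfected with scrambled siRNA, and one from cells transfected with siRNAs to CDK4 and CDK6 (CDK4/6 KD). All were kept in RPMI medium with fetal bovine serum. The dose of PD0332991 and the exposure times of the sequenced cells were not given in the sources used here. Each condition had a single library, so nothing here could be checked against replicates and no p-value is given. In bulk RNA, fewer cells making a transcript and less of it per cell cannot be told apart.

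The libraries held between 8983848 and 11176880 reads, and the 10 markers of the hepatocyte lineage examined, ALB and APOA1 among them, had reads in all 4 libraries and summed to 16440 CPM in DMSO, 18043 in PD0332991, 16339 with scrambled siRNA and 21476 with CDK4/6 KD, where CPM are read counts brought to a common library size with TMM factors. CDK4 had 354 CPM in scrambled siRNA against 71.9 in CDK4/6 KD. CDK6 had 536 and 129, so that both targeted transcripts were lower in the library labelled as their knockdown. Markers of other cell types also differed between the libraries. The summed level of 16 keratinocyte markers was 71.1 CPM in DMSO, 152 in PD0332991, 60.8 with scrambled siRNA and 105 with CDK4/6 KD. Between 11 and 15 of the 16 had reads in a library, and LOR was at 0 in all 4 libraries. KRT10, which many epithelial cells make, gave 66.3, 77.0, 48.0 and 87.1 CPM of these sums. KRT14 had 9, 249, 31 and 74 reads, KRT5 had 2, 113, 13 and 43, and KRT6A had 9, 150, 37 and 28. By contrast, TP63 had 1, 1, 0 and 1 reads, DSG3 had 2, 2, 1 and 0, and DSC3 had 6, 7, 4 and 0. Of the 7 keratinocyte markers past the filter, 4 were above 1 and 3 below 1 in CDK4/6 KD against scrambled siRNA, and all 7 were above 1 in PD0332991 against DMSO. The summed level of 6 fibroblast markers was 48.3, 78.8, 8.60 and 22.7 CPM in the same order. Of 4 blood cell markers, which summed to between 6.80 and 12.7 CPM, CD3E and HBB were at 0 in all 4 libraries. PTPRC had 2 reads in DMSO and none in the other libraries, so CD68 gave nearly all of this sum. Whether cells of these types were present, or HepG2 cells made these transcripts, was not tested, nor was any bearing on the values below.

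The 8 metallothionein genes lie in a cluster on chromosome 16, from 56608199 to 56684196 of GRCh38 (GENCODE 29). In this stretch of 76.0 kb, 7 of them are on the plus strand and MT1G is on the minus strand. MTF1 lies on chromosome 1 from 37809567 to 37859620 and SLC30A1 on the same chromosome from 211571568 to 211578742, both on the minus strand. The deposited counts carry gene symbols only and were made on hg19, so these positions serve as annotation. Each of the 8 coding sequences, taken from GENCODE 29 transcripts, was 186 bases long and held 20 cysteine codons among 61. Identity to MT2A ran from 89.8% in MT1M to 95.2% in MT1G. The coding sequences of MT2A, of its nearest relative MT1G and of the most distant one, MT1M, are printed in full because they show how little separates these genes, with capitals marking the bases that differ from MT2A.
MT2A: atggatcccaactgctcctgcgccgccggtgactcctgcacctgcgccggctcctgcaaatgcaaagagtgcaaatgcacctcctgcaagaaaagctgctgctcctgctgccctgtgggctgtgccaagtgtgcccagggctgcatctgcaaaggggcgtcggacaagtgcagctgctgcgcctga
MT1G: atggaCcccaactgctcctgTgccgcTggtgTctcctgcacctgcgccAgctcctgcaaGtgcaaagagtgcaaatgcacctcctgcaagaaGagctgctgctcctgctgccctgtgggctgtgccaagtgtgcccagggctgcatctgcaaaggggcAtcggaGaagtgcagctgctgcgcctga
MT1M: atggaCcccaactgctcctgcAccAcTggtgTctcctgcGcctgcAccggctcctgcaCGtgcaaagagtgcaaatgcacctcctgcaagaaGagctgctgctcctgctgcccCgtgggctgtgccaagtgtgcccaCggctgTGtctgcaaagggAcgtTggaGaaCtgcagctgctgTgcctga

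MT1G differed from MT2A at 9 bases and MT1M at 19. QuantSeq reads come from the 3′ end of a transcript, which was therefore compared as well. Of all stretches of 75 bases in the last 500 bases of their coding transcripts, 100% were found in no other gene for MT1A, MT1F and MT2A, 99.6% for MT1M, 99.35% for MT1E, 97.3% for MT1G and 94.1% for MT1H. MT1X stood apart with 63.2%, the rest being shared with MT1G, the pseudogene MT1XP1 or the overlapping gene AC026461.1. Where up to 2 mismatches were allowed, between 76.4% (MT1M) and 99.1% (MT1F) of the stretches were still distinct from every other metallothionein gene and pseudogene. For MT1X this was 90.2%, a measure that leaves AC026461.1 out. How the authors' counting treated reads that fit several genes is not stated, so the counts of MT1X in particular are uncertain. Summed counts depend less on this assignment.

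The promoters bear on the group because MTF1 acts through them. RefSeq promoter sequences (GRCh38.p14, 250 bases before the transcription start and 50 after it) were at hand for 5 of the 10 genes, MT1H, MT1X, MT2A, MTF1 and SLC30A1. They were searched on both strands for the core of the metal response element, TGCACNC or TGCGCNC. MT2A (chr16:56608334-56608633, plus strand), MT1X (chr16:56682220-56682519, plus strand) and SLC30A1 (chr1:211579112-211579411, minus strand) are printed 5′ to 3′ with the matches in capitals, as the metallothionein with the most reads, one with fewer matches, and the exporter.
MT2A promoter: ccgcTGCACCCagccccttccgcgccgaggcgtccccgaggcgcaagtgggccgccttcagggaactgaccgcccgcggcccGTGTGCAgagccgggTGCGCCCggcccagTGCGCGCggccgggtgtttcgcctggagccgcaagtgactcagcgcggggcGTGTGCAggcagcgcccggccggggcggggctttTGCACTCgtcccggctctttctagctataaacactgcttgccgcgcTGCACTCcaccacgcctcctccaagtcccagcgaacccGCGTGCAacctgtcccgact
MT1X promoter: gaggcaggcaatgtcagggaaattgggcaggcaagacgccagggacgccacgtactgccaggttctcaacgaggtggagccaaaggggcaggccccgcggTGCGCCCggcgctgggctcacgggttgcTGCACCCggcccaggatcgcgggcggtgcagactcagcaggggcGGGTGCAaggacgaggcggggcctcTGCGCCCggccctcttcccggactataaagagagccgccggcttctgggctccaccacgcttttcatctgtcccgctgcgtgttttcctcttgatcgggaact
SLC30A1 promoter: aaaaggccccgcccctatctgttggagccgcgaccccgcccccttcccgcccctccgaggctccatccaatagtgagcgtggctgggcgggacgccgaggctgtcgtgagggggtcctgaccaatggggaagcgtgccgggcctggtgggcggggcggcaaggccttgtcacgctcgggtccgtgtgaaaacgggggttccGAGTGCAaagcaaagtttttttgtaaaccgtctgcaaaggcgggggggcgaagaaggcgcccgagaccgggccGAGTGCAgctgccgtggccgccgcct

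MT2A and MT1H held 8 matches each, MT1X held 4, SLC30A1 held 2 and MTF1 none, and no matches overlapped. Among all 35116 promoters of this length, 29.55% held at least 1 match, 8.60% at least 2, 0.601% at least 4 and 0.0199% at least 8. A match is a run of letters and not evidence of binding, and none in the MTF1 window says only that these letters are not there.

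**Figure D1:**
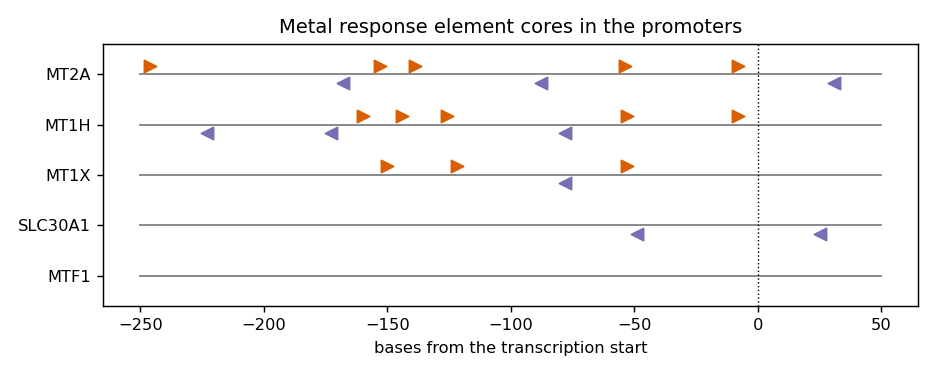
Positions of the metal response element core (TGCACNC or TGCGCNC) in 5 RefSeq promoters, in bases from the transcription start (dotted line). Right-pointing orange triangles are matches on the gene's strand and left-pointing purple triangles matches on the other strand. MT2A and MT1H each held 8 matches, MT1X held 4, SLC30A1 held 2 and MTF1 none.

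Summed over the 8 genes, metallothionein transcripts were lower under both forms of CDK4/6 inhibition. Gene by gene, MT1F and MT1M were not lower in CDK4/6 KD than with scrambled siRNA (fold changes of 1.06 and 1.10, given below). The 8 genes together had 32748 reads in DMSO, 14252 in PD0332991, 39572 with scrambled siRNA and 11621 with CDK4/6 KD, which came to 3584, 1565, 3698 and 1027 CPM. Both control libraries were high and nearly level, PD0332991 was lower and CDK4/6 KD lowest. The summed fold change was 0.278 in CDK4/6 KD against scrambled siRNA (counting interval: 0.272 to 0.283) and 0.437 in PD0332991 against DMSO (counting interval: 0.428 to 0.445). Between the controls, scrambled siRNA against DMSO, it was 1.03 (counting interval: 1.02 to 1.05). The counting intervals give, at 95%, the exact binomial (Clopper-Pearson) limits for how reads divide between 2 libraries. They cover counting error only and not the spread between cultures, and no molecular identifiers that would count PCR copies once are named for these libraries. The sum took 0.359% of all reads in DMSO and 0.106% in CDK4/6 KD.

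**Figure D2:**
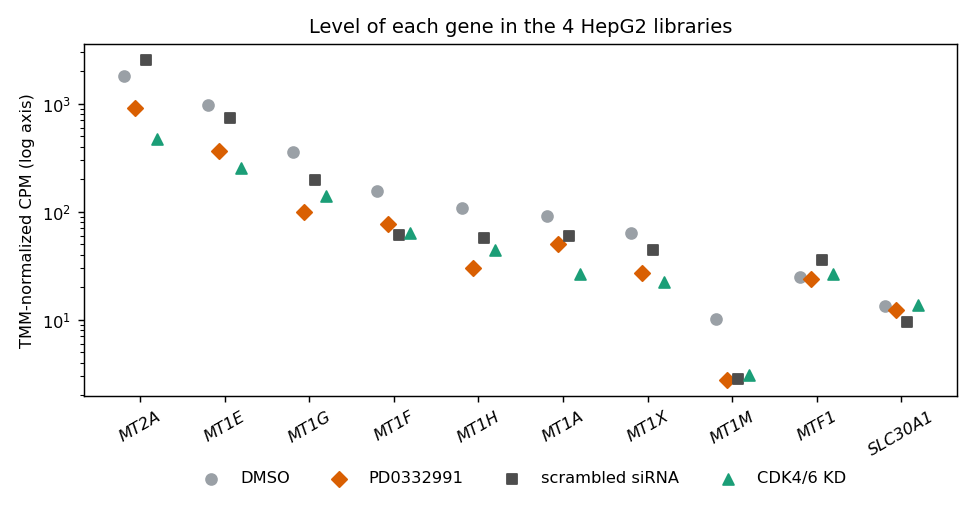
TMM-normalized CPM of the 10 genes (log axis), 1 point per library: DMSO (grey circles), PD0332991 (orange diamonds), scrambled siRNA (black squares) and CDK4/6 KD (green triangles). MT2A runs from 473 CPM in CDK4/6 KD to 2542 in scrambled siRNA, and for MT1F and MT1M the DMSO library alone stands high.

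The first comparison set the library from cells with both kinases knocked down against scrambled siRNA. MT2A, the most widely expressed human metallothionein, had 27196 reads (2542 CPM) with scrambled siRNA but 5360 (473 CPM) in CDK4/6 KD, beside 16534 reads in DMSO and 8346 in PD0332991. Its fold change was 0.186 (counting interval: 0.181 to 0.192), the lowest of the 10. MT1E had 7871 reads (736 CPM) with scrambled siRNA against 2862 (253 CPM) in CDK4/6 KD (fold change 0.344, counting interval 0.329 to 0.359). MT1A, with 637 and 298 reads, was also past 2-fold lower (fold change 0.443, counting interval 0.384 to 0.508). These 3 of the 10 genes were at least 2-fold lower and none was 2-fold higher, where 7.62% of the 13617 genes compared were at least 2-fold lower and 9.19% at least 2-fold higher. Of 4126 well counted genes, those averaging 500 reads or more, 5.43% were at least 2-fold lower. Against DMSO in place of scrambled siRNA, 8 of the 10 were, all of them metallothioneins, where 8.16% of 13512 genes were.

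The other metallothioneins spanned the rest of the range in CDK4/6 KD. MT1X had 472 reads with scrambled siRNA against 254 in CDK4/6 KD (fold change 0.509, counting interval 0.435 to 0.594). MT1G, with 2110 and 1583 reads, and MT1H, with 610 and 504, were lower by less (fold changes of 0.709 and 0.781, with intervals under 1). MT1F had 646 and 725 reads (60.4 and 64.0 CPM), and its interval held 1 (fold change 1.06, counting interval 0.953 to 1.18). MT1M rested on 30 and 35 reads (fold change 1.10, counting interval 0.658 to 1.86), too few to show a difference of this size. The genes of the group thus differed from each other in this comparison, from 0.186 for MT2A to 1.10 for MT1M. On the log2 scale the median over the 10 genes was -0.475, against -0.004 for all genes compared.

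The inhibitor was set against its solvent. All 8 metallothioneins were lower in PD0332991 than in DMSO, with intervals under 1 and fold changes from 0.274 to 0.549. MT1G had 3287 reads (360 CPM) in DMSO against 897 (98.5 CPM) in PD0332991 (fold change 0.274, counting interval 0.254 to 0.295). MT1H had 1000 and 276 reads (fold change 0.277, counting interval 0.241 to 0.317). MT1M, with 93 and 25 reads, had the same size of difference with a wider interval (fold change 0.274, counting interval 0.166 to 0.423). These 3 genes had the lowest fold changes here, and in CDK4/6 KD theirs were 0.709, 0.781 and 1.10.

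MT1E had 8991 reads in DMSO against 3304 in PD0332991 (fold change 0.369, counting interval 0.354 to 0.384), close to its fold change in CDK4/6 KD. MT1X had 586 and 245 reads and MT1F had 1419 and 701 (fold changes of 0.420 and 0.496). The counting interval of MT1F, 0.452 to 0.543, spanned the 2-fold line. MT2A, at 16534 and 8346 reads (1810 and 917 CPM), had a fold change of 0.507 (counting interval: 0.493 to 0.520), and MT1A, at 838 and 458 reads, one of 0.549. At least 2-fold lower were 6 of the 10 genes and at least 2-fold higher none, where 7.06% of 13443 genes were at least 2-fold lower and 7.49% at least 2-fold higher. Of the same 4126 well counted genes, 3.93% were at least 2-fold lower. The median log2 fold change was -1.13, against 0.018 for all genes compared. With scrambled siRNA as the control, the count of 6 became 3, where 8.17% of 13552 genes were at least 2-fold lower. MT1F was then higher in PD0332991 (fold change: 1.275) and the other metallothioneins had fold changes from 0.361 for MT2A to 0.980 for MT1M.

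**Figure D3:**
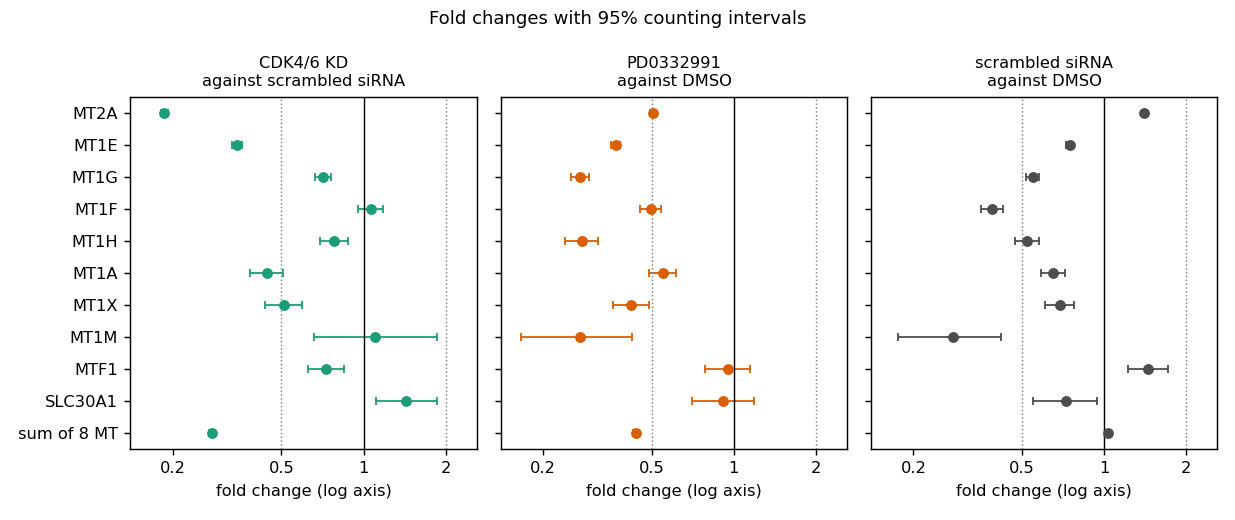
Fold change of each gene and of the 8 metallothioneins summed (log axis) in 3 comparisons, with bars for 95% counting intervals, a solid line at 1 and dotted lines at 2-fold. In CDK4/6 KD the values spread from 0.186 for MT2A to 1.43 for SLC30A1, in PD0332991 all 8 metallothioneins lie between 0.274 and 0.549, and between the controls MT2A and MTF1 alone lie above 1 while the summed value is 1.03.

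The control libraries themselves differed gene by gene, although their summed metallothionein levels were nearly level. MT2A was the one metallothionein higher with scrambled siRNA (fold change against DMSO 1.405, counting interval 1.38 to 1.43). The other 7 metallothioneins were lower there, with fold changes from 0.279 for MT1M and 0.389 for MT1F to 0.748 for MT1E. MT1M and MT1F were past 2-fold lower, 2 of the 10 genes, where 6.64% of 13303 genes were at least 2-fold lower and 5.3% at least 2-fold higher. MT1M had 93 reads in DMSO and 30 in scrambled siRNA, and MT1F had 1419 and 646. Since scrambled siRNA is the base of the knockdown comparison, the fold changes of CDK4/6 KD against DMSO are given beside it. They were 0.257 for MT1E, 0.262 for MT2A, 0.287 for MT1A, 0.307 for MT1M, 0.350 for MT1X, 0.389 for MT1G, 0.407 for MT1H and 0.413 for MT1F, a narrower range in which MT1F and MT1M were also under 1. These comparisons share libraries and are not independent of each other.

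The make-up of the metallothionein reads followed from this. QuantSeq takes reads from 1 stretch near the 3′ end of a transcript, so the share of reads was taken per transcript and not divided by length. MT2A gave 50.5% of the reads of the 8 genes in DMSO, 58.6% in PD0332991, 68.7% with scrambled siRNA and 46.1% with CDK4/6 KD (exact 95% interval in CDK4/6 KD: 45.2% to 47.0%). MT1E came next in each library with 27.5%, 23.2%, 19.9% and 24.6%. MT1G gave 10.0%, 6.29%, 5.33% and 13.6%, so that its share was lowest in scrambled siRNA and highest in CDK4/6 KD. The 7 MT1 genes without MT2A summed to 1774 CPM in DMSO, 649 in PD0332991, 1157 with scrambled siRNA and 553 with CDK4/6 KD. Their fold changes were 0.478 in CDK4/6 KD, 0.366 in PD0332991 and 0.652 between the controls. Without MT2A the knockdown value was thus closer to 1, by more than 1.5 times.

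**Figure D4:**
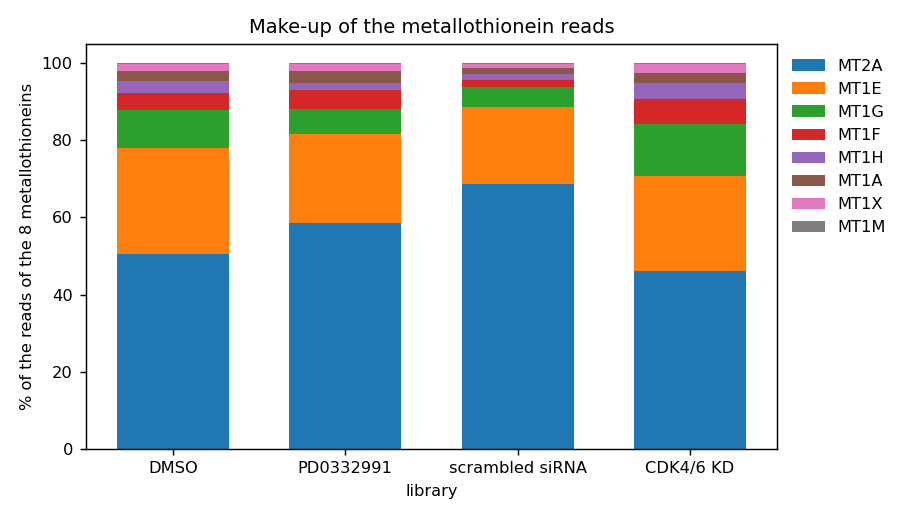
Share of each gene (stacked colours) in the reads of the 8 metallothioneins, in percent, for the 4 libraries. MT2A takes 68.7% with scrambled siRNA and 46.1% with CDK4/6 KD, and MT1G takes 5.33% and 13.6%.

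MTF1, the metal sensor that drives the metallothionein genes, had 228 reads in DMSO, 216 in PD0332991, 386 with scrambled siRNA and 298 with CDK4/6 KD (24.9, 23.7, 36.1 and 26.3 CPM). The scrambled siRNA library was the high one and the other 3 lay close together. In CDK4/6 KD the fold change was 0.730 (counting interval: 0.625 to 0.851), or 1.055 (counting interval: 0.885 to 1.26) against DMSO. In PD0332991 it was 0.951 (counting interval: 0.786 to 1.15).

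SLC30A1, the exporter, had 122 reads in DMSO, 111 in PD0332991, 103 with scrambled siRNA and 156 with CDK4/6 KD (13.3, 12.2, 9.63 and 13.8 CPM). Here scrambled siRNA was the low library. The fold change was 1.43 in CDK4/6 KD (counting interval: 1.11 to 1.86), or 1.03 (counting interval: 0.809 to 1.32) against DMSO, and 0.913 in PD0332991 (counting interval: 0.70 to 1.19), or 1.265 (counting interval: 0.960 to 1.67) against scrambled siRNA. Neither MTF1 nor SLC30A1 was past 2-fold in any of these comparisons.

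Of 10 further metallothionein genes and pseudogenes listed, 8 were in the tables and summed to between 11 and 37 reads per library. MT3 and MT4, the metallothioneins of brain and squamous epithelium, had no read in any library. MT1JP, a transcribed pseudogene of the cluster, had 17 reads in DMSO, 4 in PD0332991, 9 with scrambled siRNA and 5 with CDK4/6 KD (fold change in PD0332991: 0.258, counting interval: 0.0578 to 0.724). Against scrambled siRNA the interval held 1 (0.117 to 1.87).

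The zinc transporters lay on both sides of 1 in both comparisons, with more of them above it. Of 9 SLC30A genes besides SLC30A1, a family that moves zinc out of the cytosol, 6 passed the filter. Past 2-fold in CDK4/6 KD were 1 gene upward and 1 downward, and in PD0332991 1 upward and none downward. A rise of at least 2-fold was seen for 9.19% of the genes compared in the knockdown and 7.49% with the inhibitor. A fall of that size was seen for 7.62% and 7.06%. The median log2 fold changes of the 6 were 0.18 and 0.10, where the medians over all genes lay at -0.004 and 0.018. SLC30A10, known mainly as a manganese exporter, had 55 reads in DMSO, 153 in PD0332991, 36 with scrambled siRNA and 117 with CDK4/6 KD. It was higher under both forms of inhibition (fold changes of 3.05 in CDK4/6 KD, counting interval: 2.10 to 4.60, and 2.775 in PD0332991, counting interval: 2.04 to 3.87). With DMSO as the control, the knockdown value was 1.71. SLC30A3, a vesicular zinc transporter, was lower in CDK4/6 KD, with 147 and 64 reads (fold change 0.414, counting interval 0.302 to 0.556).

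Of the 14 SLC39A genes, which bring zinc into the cytosol, 11 passed the filter. In CDK4/6 KD none was at least 2-fold higher and 1 was lower, where 9.19% of all genes were higher and 7.62% lower. In PD0332991 3 were higher and none lower, where 7.49% of all genes were higher and 7.06% lower. The medians were 0.35 and 0.53 on the log2 scale, against -0.004 and 0.018 for all genes. Above 1 were 8 of the 11 in CDK4/6 KD and 9 in PD0332991. Between the controls, scrambled siRNA against DMSO, 8 were above 1 as well, with a median of 0.255. SLC39A9 had 761 reads with scrambled siRNA against 345 in CDK4/6 KD (fold change 0.429, counting interval 0.376 to 0.487). SLC39A10, SLC39A13 and SLC39A11 were higher in PD0332991 than in DMSO, from 173 to 393 reads for SLC39A10 (fold changes of 2.28, 2.04 and 2.00). Against scrambled siRNA none of the 3 was past 2-fold (1.37, 1.67 and 1.65). The copper genes, among them the importer SLC31A1 and the exporters ATP7A and ATP7B, numbered 9, and none was past 2-fold in either comparison.

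**Figure D5:**
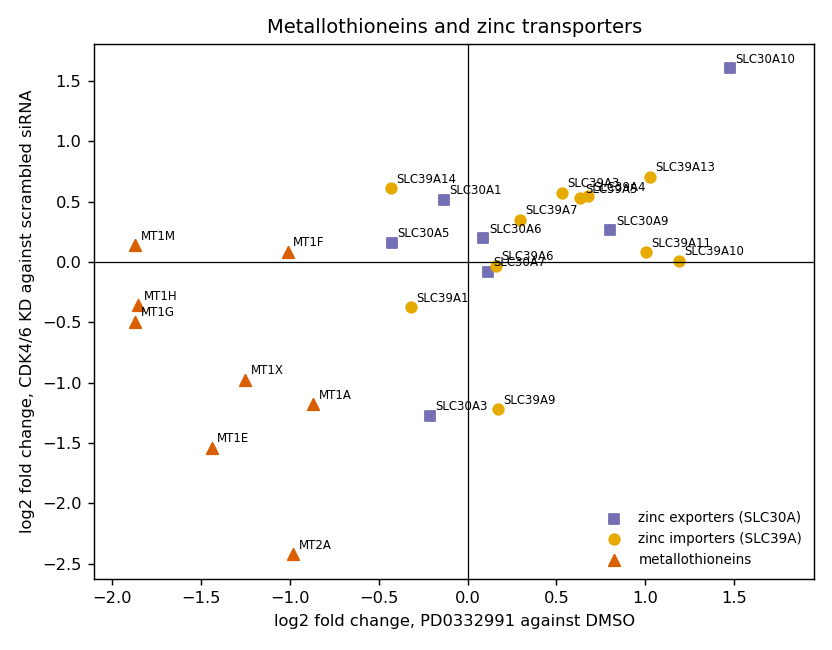
Log2 fold change in CDK4/6 KD against scrambled siRNA (vertical axis) and in PD0332991 against DMSO (horizontal axis) for the 8 metallothioneins (triangles) and the SLC30A (squares) and SLC39A (circles) genes that passed the filter in both. All metallothioneins lie left of 0, with MT2A lowest, and SLC30A10 lies highest in both.

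Gene groups that share inducers with the metallothioneins were counted in the same way. Of 11 genes induced by oxidants, heat or metals, 2 were at least 2-fold lower in CDK4/6 KD and none higher, with a median log2 fold change of -0.28. Among all genes compared, 7.62% were at least 2-fold lower and 9.19% at least 2-fold higher, with a median of -0.004. The 2 lower genes were SRXN1, which repairs oxidized peroxiredoxins, with 2698 reads with scrambled siRNA against 1174 in CDK4/6 KD (fold change: 0.411), and the heat shock gene HSPA6, with 11 reads and 1 (fold change 0.125, counting interval 0.002 to 0.591). Both were past 2-fold lower only with scrambled siRNA as the control. HSPA6 had no read in DMSO or PD0332991. SRXN1 was still lower in CDK4/6 KD than in DMSO (fold change 0.588, counting interval 0.545 to 0.635). In PD0332991 10 of the 11 passed the filter, with a median of -0.47, against 0.018 for all genes. The cystine transporter gene SLC7A11 alone was past 2-fold, with 493 reads in DMSO against 1622 in PD0332991 (fold change: 3.30). Of all genes, 7.49% were at least 2-fold higher there and 7.06% lower. DMSO was the low library for this gene, which had 1743 reads with scrambled siRNA and 1889 with CDK4/6 KD, and against scrambled siRNA the fold change in PD0332991 was 1.09. HMOX1, a haem-degrading enzyme that cadmium induces strongly, had 891, 587, 710 and 733 reads in DMSO, PD0332991, scrambled siRNA and CDK4/6 KD.

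Glucocorticoids also induce MT2A. Of 10 glucocorticoid-responsive genes, 8 passed the filter, of which 2 were past 2-fold up and 2 past 2-fold down in the knockdown, and 1 each way with PD0332991. For all genes the shares were 9.19% up and 7.62% down in the knockdown, and 7.49% and 7.06% with PD0332991. FKBP5, a co-chaperone of the glucocorticoid receptor, was lower in both (fold changes of 0.427 and 0.334), with 413, 137, 459 and 207 reads in DMSO, PD0332991, scrambled siRNA and CDK4/6 KD. TSC22D3 was higher in both, with 6, 110, 26 and 122 reads in the same order (fold changes of 4.37 in CDK4/6 KD and 17.1 in PD0332991, the latter with a counting interval from 8.19 to 51.2). TAT, a tyrosine-degrading liver enzyme, was higher in CDK4/6 KD on 16 and 37 reads (fold change: 2.15), and ERRFI1, which restrains EGF receptor signalling, was lower on 502 and 232 (fold change: 0.437). The list therefore held genes on both sides.

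Of 10 genes induced by interleukin 6 through STAT3, another route to metallothionein induction in liver, 7 passed the filter. SAA1, SAA2 and CRP did not, with 2 reads or fewer in every library. In CDK4/6 KD 5 of the 7 were at least 2-fold higher and none lower, where 9.19% of all genes compared were at least 2-fold higher. The fibrinogen chains FGA and FGG and haptoglobin (HP) led the higher genes (fold changes of 3.385, 3.13 and 3.15). Against DMSO, their fold changes in CDK4/6 KD were 3.16, 2.01 and 0.996. In scrambled siRNA against DMSO all 7 were below 1, and 3 were at least 2-fold lower (HP: 0.317), where 6.64% of all genes were. In PD0332991 none of the 7 was past 2-fold.

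The genes whose levels over the 4 libraries lay nearest to the summed metallothioneins were POLE3, GEMIN5, GPATCH4, RECQL4 and MTHFD1, among 7190 genes averaging 200 reads or more. The measure was the Euclidean distance between log2 CPM values centred on their mean over the 4 libraries, which was 0.20 for POLE3 and 0.45 for MTHFD1. POLE3, a subunit of DNA polymerase epsilon, had 3401 reads in DMSO, 1580 in PD0332991, 3735 with scrambled siRNA and 1097 with CDK4/6 KD (fold changes of 0.278 in CDK4/6 KD and 0.466 in PD0332991). With 4 libraries, such likeness is a description of these libraries only.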

How the data were processed

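HepG2 RNA was profiled in 4 QuantSeq 3′ libraries, read as single ends of 75 bases. The deposited values were unnormalized read counts, 1 table per library with a symbol for each gene. The submitters' processing notes name Bowtie2, edgeR and the build hg19, while versions, the read counter, the annotation and the use of strand are not given in the sources used here. Symbols listed more than once (286 of them, none a gene of the group) were summed. Library sizes were scaled with TMM factors (edgeR 4.0.16, R 4.3.3). A pseudocount of 0.5 reads, in proportion to library size, was added before taking ratios, and a gene needed 10 reads or more in one of the libraries compared. Exact 95% Clopper-Pearson intervals used scipy 1.17.1. The quasi-likelihood test of edgeR could not be run, as no condition had replicates. The script was tested on simulated data with counting error only. That test held no spread between cultures and says nothing about it. The alternatives were DESeq2 1.42.0 size factors, total counts, quantile normalization (limma 3.58.1), a pseudocount of 5, no filter or one of 50 reads, the control of the other arm, the most counted entry of a symbol, thresholds of 1.5-fold or of whole intervals past 2-fold, and other sums.

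The genes and lists were chosen with earlier results of these data known. All 10 genes are named. From each other list except the cell type markers, up to 3 genes per direction and comparison are named that were past 2-fold with an interval leaving out 1, ranked by the interval end nearest to 1, and the 5 genes nearest in pattern are named. HMOX1, SLC31A1, ATP7A, ATP7B, MT3, MT4, SAA1, SAA2, CRP, SERPINA3, SOCS3, FGB and ORM1 and the cell type marker genes were named after their values were seen. Protein sequences were not used here.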

Additional observations from a re-analysis of the deposited data

Results flagged for a closer look

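With 1 library per condition, the difference between the comparisons was not tested for any gene. For 3 genes the fold change lay above 1 in CDK4/6 KD against scrambled siRNA and under 1 in PD0332991 against DMSO. MT1F was at 1.06 and 0.496, MT1M at 1.10 and 0.274, and SLC30A1 at 1.43 and 0.913. The knockdown intervals of MT1F and MT1M and the PD0332991 interval of SLC30A1 held 1. Against DMSO, the knockdown values of MT1F and MT1M were 0.413 and 0.307, and against scrambled siRNA the PD0332991 value of SLC30A1 was 1.265.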

How the results depend on the processing

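Of 139 values of single genes under alternatives other than the exchanged control, 134 stayed within the 95% counting interval and none of those with an interval leaving out 1 crossed 1. MT1M in CDK4/6 KD (0.976) and MTF1 in PD0332991 (1.013), whose intervals held 1, crossed it with quantile normalization. The summed fold change in CDK4/6 KD was 0.298 with total counts, which shifted the median of all genes by 0.104 (log2), 0.296 with quantile normalization, 0.253 without MT1G and 0.478 without MT2A. In PD0332991 it was 0.366 without MT2A and 0.463 without MT1E. The count of 6 genes at least 2-fold lower in PD0332991 became 5 with total counts, quantile normalization or whole intervals past 2-fold, and 8 at 1.5-fold. The count of 3 in CDK4/6 KD became 2 with whole intervals and 4 at 1.5-fold. The control library moved the counts and medians most, and the sums less than leaving out MT2A did. With the controls exchanged, the sums were 0.2865 and 0.423, the median log2 fold changes of the 10 genes -1.44 and -0.66, and the genes at least 2-fold lower 8 and 3 (8.16% and 8.17% of all genes were), for CDK4/6 KD and PD0332991 in turn. MTF1 in CDK4/6 KD (1.055) and MT1F and SLC30A1 in PD0332991 (1.275 and 1.265) then lay above 1, and MT1F and MT1M in CDK4/6 KD under 1. No paired analysis was possible because each condition had 1 library. MT1M, with 25 to 93 reads per library, is limited by depth.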
